A study of Arabidopsis thaliana with 3 samples.

Results

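The 41 genes described here encode proteins of the kinds that Arabidopsis seeds lay down during maturation. They are 4 12S globulins, 5 2S albumins, 5 oleosins, 2 caleosins, 24 late embryogenesis abundant (LEA) proteins, 7 of which are dehydrins, and the peroxiredoxin PER1. The genes were chosen as a list of loci by the kind of protein they encode. The rule uses no measured value, although it was written with earlier results of these data known. All 41 were found among 27432 nuclear protein-coding genes. The 12S globulins (cruciferins) and 2S albumins are the nitrogen store of the seed, and oleosins and caleosins coat its oil bodies. Most LEA proteins, dehydrins among them, are hydrophilic, and many accumulate as the seed dries. Most of these genes are switched on in the embryo by the B3 factors ABI3, FUS3 and LEC2 together with bZIP factors and abscisic acid, and are shut down as the seedling establishes, while several dehydrins are also induced by cold or drought in leaves.

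Binding of AtSDR4L, a relative of the rice dormancy factor SDR4, was measured by chromatin immunoprecipitation and sequencing in whole seedlings of the AtSDR4L-HA line. The induced group was 2 biological replicates grown for 4 days with β-estradiol at 1 µM. The single control sample came from the same line grown without the inducer. Both groups carried the tagged transgene and were precipitated with the same HA antibody. All seeds had been kept cold and dark at 4 °C for 3 days, and the seedlings then grew at 22 °C with 16 h of light and 8 h of dark. The sources used here do not state the driver of the transgene, the number of independent lines or the number of seedlings per sample. The question put to these 41 genes is whether the induced protein was enriched at them in seedlings 4 days after imbibition.

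The deposited peak lists held 9811 nuclear peaks in replicate 1 and 3423 in replicate 2, each called by the authors against the 1 control. Fold enrichment is the authors' value at a peak's summit over that control, with a list median of 1.80 in replicate 1 and 1.70 in replicate 2. A gene was counted when a summit lay from 1000 bp outside either of its ends through its body. Depth is unknown, since a peak list carries no read counts, and folds therefore stand without a counting error. A gene without a peak is one whose window held no summit of a region that passed the authors' limit. Such a region could still reach into the window from outside.

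Most of the 41 genes had no peak. In replicate 1, 11 genes (26.8%, exact binomial 95% interval 14.2 to 42.9) had a summit in their window, and 36.0% of all nuclear protein-coding genes did. The other 30 members (73.2%) had none in that list. In replicate 2, 4 genes (9.76%, 2.72 to 23.1) had a summit and 37 (90.2%) had none, beside 13.6% of all coding genes with one. A peak in both lists was found at 1 member (2.44%, 0.0617 to 12.9, against 8.88% of all coding genes). A peak in at least one list was found at 14 members (34.1%, 20.1 to 50.6, against 40.7%), which left 27 members (65.9%) without a peak in either. Each of these intervals holds the share of all coding genes, although each share of the members was the lower. The intervals are wide and treat genes as independent, although some members share a peak. They therefore do not show that the shares are equal.

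The authors' deposited table of irreproducible discovery rates (IDR), which matches the peaks of both replicates and ranks how repeatably each was found, had a region at 1 of the 41 genes (2.44%, 0.0617 to 12.9, against 7.09% of coding genes). At an IDR of at most 0.05 it had a region at 0 of the 41, which allows a share of up to 8.60% by the exact 95% interval. Only 0.507% of all coding genes had one at that limit, so a count of 0 among 41 genes is not distinguishable from that share.

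The seed genes have short spans, with a median of 1274 bp and a range of 634 to 2465 bp, against a median of 2078 bp over all coding genes. Among the 15008 coding genes with spans within that range, 34.0% had a summit in replicate 1, 12.1% in replicate 2, 7.90% in both and 38.2% in either. Of these genes 6.54% had a matched region and 0.426% had one at an IDR of at most 0.05.

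**Figure D1:**
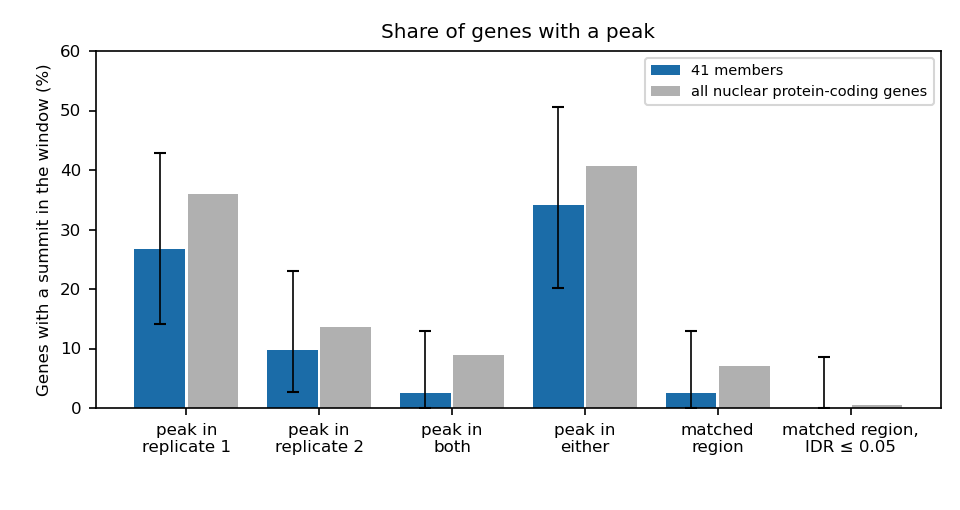
Percent of genes with a peak summit in the window, for the 41 seed genes (blue, with exact binomial 95% intervals as error bars) and all 27432 nuclear protein-coding genes (grey). The members reach 26.8% in replicate 1 and 9.76% in replicate 2, and every interval holds the grey value beside it.

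Of the 9 storage protein genes, 3 had a peak in replicate 1 (33.3%, against 36.0% of all coding genes) and 0 in replicate 2 (against 13.6%). Among the 12S globulins, CRA1 (AT5G44120) had a peak at chromosome 5: 17755771-17756136 with a fold of 1.92, and its summit lay 303 bp outside the gene. The neighbouring gene ABCI21 was nearer to that summit, at 167 bp. AT1G03890, a further globulin gene, had a peak at chromosome 1: 991026-991458 with a fold of 1.67, whose summit lay 292 bp outside it and inside the next gene, ABCI18. The other two globulin genes, CRU2 and CRU3, had none in their windows. Their nearest summits in replicate 1 lay 1635 bp from CRU2, with a fold of 1.65, and 1688 bp from CRU3, inside NAC074, with a fold of 2.07.

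Of the 5 2S albumin genes, SESA5 (AT5G54740) alone had a peak, at chromosome 5: 22237457-22237846 with a fold of 2.06. Its summit lay 648 bp outside SESA5 and 340 bp from the autophagy gene G18F. The other 4 albumin genes, SESA1 to SESA4, stand side by side on chromosome 4 in a stretch with no peak in either list. In replicate 1 the last summit before them was at 13573236 and the first after them at 13651199. That gap of 77963 bp held 19 whole coding genes, and in replicate 2 the gap was 84233 bp. Of all gaps between summits, 1.26% were at least as long in replicate 1 and 8.75% in replicate 2. These shares count each gap once, whatever its length. They are therefore not the share of genes that stand in such gaps. Each of the 4 genes lay over 30 kb from any summit in each list. Among all coding genes, 4.12% did so in replicate 1 and 20.6% in replicate 2.

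Of the 7 oil body genes, 1 had a peak in replicate 1 (14.3%, against 36.0% of all coding genes) and 0 in replicate 2 (against 13.6%). OLEO4 (AT3G27660) was the only oleosin gene with one, in replicate 1 at chromosome 3: 10245251-10245626 with a fold of 1.65. The summit lay 410 bp outside OLEO4 and within the span of its neighbour RST1. OLEO1, OLEO2 and OLEO3, which code for oleosins of the oil body coat, had their nearest summits 16342, 8811 and 12966 bp away in replicate 1 and 33566, 9904 and 12879 bp away in replicate 2. AT3G01570, the fifth oleosin gene, had its nearest summit at 2284 bp, inside AT3G01560, with a fold of 1.72. The caleosin genes ATS1 and ATPXG2, whose products are calcium-binding peroxygenases, had their nearest summits in replicate 1 at 3241 and 29930 bp. PER1, which codes for a 1-Cys peroxiredoxin of the dry embryo, had its nearest at 7120 bp in replicate 1 and 10584 bp in replicate 2.

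**Figure D2:**
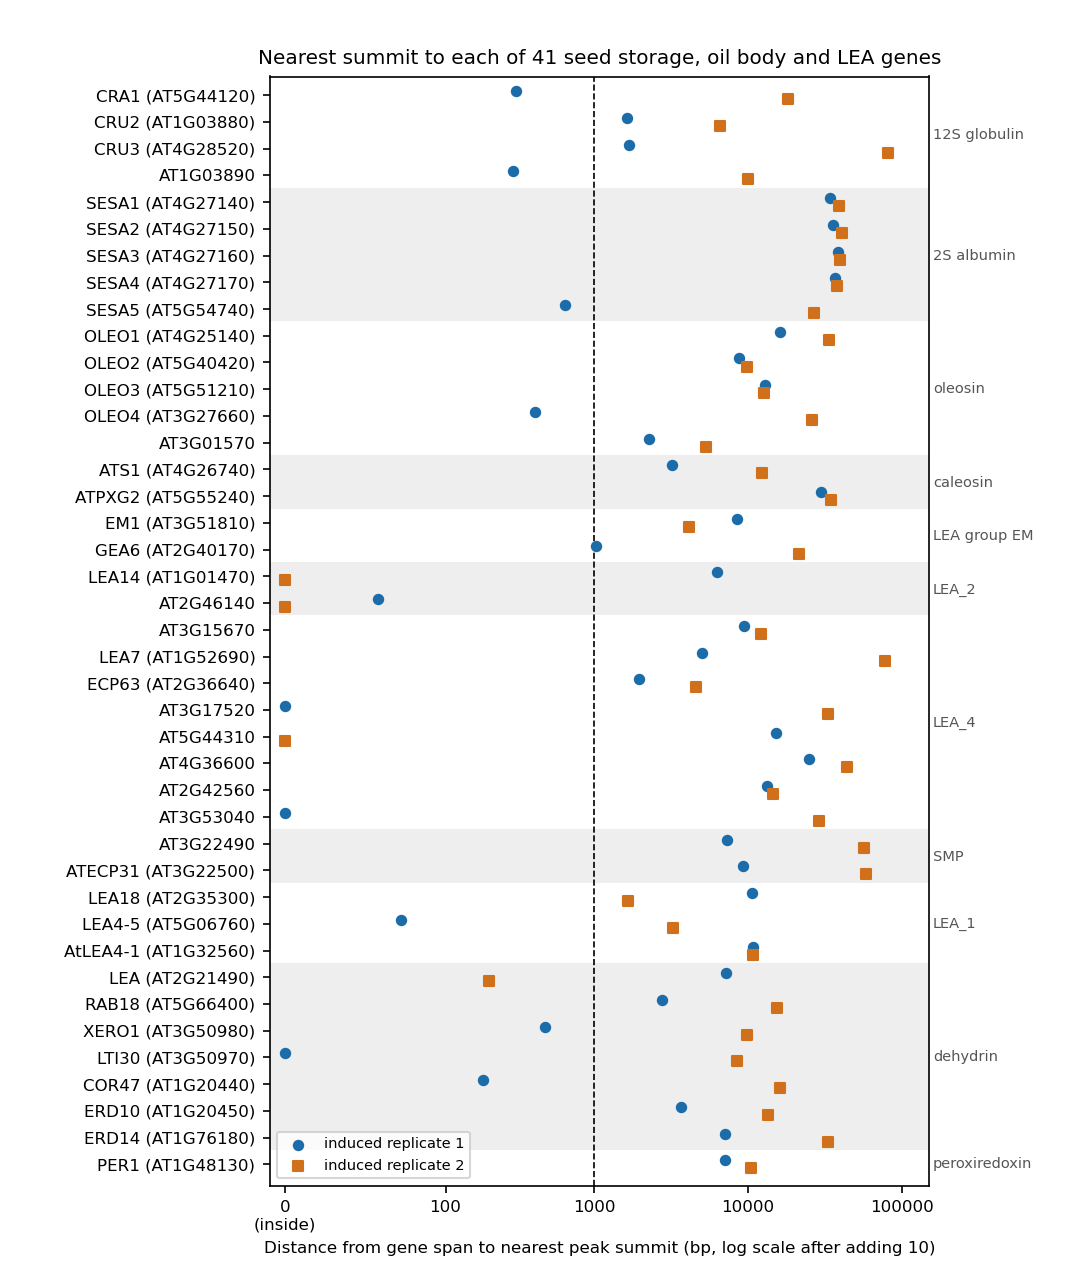
Distance in bp from the span of each of the 41 genes to the nearest peak summit of replicate 1 (blue circles) and replicate 2 (orange squares), on a log axis after adding 10 bp, with genes grouped by protein family. Points left of the dashed line at 1000 bp are counted as peaks of the gene, and AT2G46140 alone has both of its points there.

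Of the 24 LEA and dehydrin genes, 10 had a peak in at least one list (41.7%, against 40.7% of all coding genes). In replicate 1 there were 7 (29.2%, against 36.0%), and in replicate 2 there were 4 (16.7%, against 13.6%). The member with a peak in both lists was AT2G46140 (LEA27), one of the 2 members of the LEA_2 group. In replicate 1 its main peak lay at chromosome 2: 18960602-18961519 with a fold of 2.97, higher than that of 93.1% of the list. In replicate 2 the peak lay at chromosome 2: 18960956-18961809 with a fold of 2.03, higher than that of 76.5% of the list. The main summits were 10 bp apart, the intervals shared 564 bp, and the fold was 2.50 ± 0.665 (SD, n = 2). Both summits stood between 2 genes, 452 and 462 bp from AT2G46140 and nearer to AT2G46150, at 186 and 176 bp.

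Further peaks lay at AT2G46140 in each list, at different places. Replicate 1 had one at chromosome 2: 18958833-18959110 with a fold of 1.86, 30 bp outside the other end of the gene, and replicate 2 had one inside the gene at chromosome 2: 18959915-18960235 with a fold of 1.80. Neither was overlapped in the other list.

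In the authors' deposited table the shared region at AT2G46140 had an IDR of 0.649, the highest value there, which it shared with 640 other regions out of 1776 on nuclear chromosomes. The region carried a −log10 q of 1.48 for replicate 1 and 3.61 for replicate 2, the values of the lesser summit of each peak, whereas the main summits had 26.7 and 8.25.

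**Figure D3:**
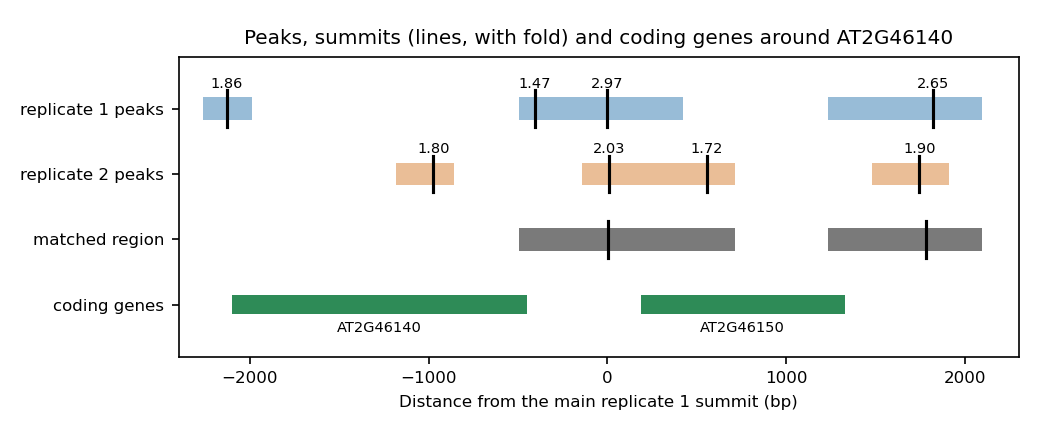
Peaks of replicate 1 (blue) and replicate 2 (orange), regions of the authors' IDR table (grey) and the spans of AT2G46140 and AT2G46150 (green), by distance in bp from the main summit of replicate 1. Black lines are summits, each peak summit with its fold, and the main summits of 2.97 and 2.03 stand 10 bp apart between the genes, while the other grey region is over 1000 bp from AT2G46140 and was not counted.

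LEA14 (AT1G01470), the other LEA_2 gene, had peaks in replicate 2 only, both inside the gene. One lay at chromosome 1: 171646-171935 with a fold of 1.15 and the other at chromosome 1: 172255-172767 with 1.19. Only 0.263% and 0.964% of the list had a lower fold, while 16.2% and 34.7% had a weaker q. The nearest summit of replicate 1 was 6296 bp from the gene.

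Among the 8 LEA_4 genes, 2 had a peak in replicate 1 (25.0%, against 36.0% of all coding genes) and 1 in replicate 2 (12.5%, against 13.6%). Each of these 3 genes had a peak in 1 list only. AT3G17520 had peaks in replicate 1 at chromosome 3: 5997804-5999047, 536 bp outside the gene with a fold of 2.35, and at chromosome 3: 5999388-5999744, inside it with a fold of 1.61. No other coding gene was in reach of either summit. AT3G53040 had a peak inside the gene in replicate 1 at chromosome 3: 19664683-19664959 with a fold of 1.85, with the kinase gene SRPK4 at 278 bp. AT5G44310 had one inside the gene in replicate 2 at chromosome 5: 17848658-17848936 with a fold of 1.61. Without a peak were AT3G15670, LEA7, ECP63, AT4G36600 and AT2G42560, and of these ECP63 came closest, with a summit of replicate 1 at 1971 bp and a fold of 1.65.

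LEA4-5 (AT5G06760), of the LEA_1 group, had peaks in replicate 1 on both sides. The one at chromosome 5: 2090042-2090722 had a fold of 1.88 with its summit 47 bp outside the gene. The one at chromosome 5: 2088280-2088739 had a fold of 2.26 with its summit 892 bp away, the farthest of any counted, and inside AT5G06750. Replicate 2 had no summit within 3256 bp of the gene. Its group relatives LEA18 and AtLEA4-1 had none in their windows, although LEA18 had a summit of replicate 2 at 1659 bp with a fold of 1.34.

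No peak was found in the windows of the EM genes EM1 and GEA6 (EM6), which encode small, strongly hydrophilic LEA proteins of the embryo. GEA6 was the member just outside the limit, with a summit of replicate 1 at 1027 bp, a fold of 1.40 and a −log10 q of 1.02. The SMP genes AT3G22490 and ATECP31, neighbours on chromosome 3, had their nearest summits at 7374 and 9318 bp.

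Of the 7 dehydrin genes, 3 had a peak in replicate 1 (42.9%, against 36.0% of all coding genes) and 1 in replicate 2 (14.3%, against 13.6%). LTI30 and XERO1, which stand side by side, shared 1 peak of replicate 1 at chromosome 3: 18941312-18941619 with a fold of 1.47. Its summit lay inside the cold-induced gene LTI30 and 479 bp from XERO1. COR47, another cold-induced dehydrin gene, had a peak of replicate 1 at chromosome 1: 7083993-7084238 with a fold of 1.16, 182 bp outside the gene. Only 0.204% of the list had a lower fold, while 27.5% had a weaker q.

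AT2G21490, listed with the symbol LEA, had the peak with the strongest q of any member. It lay in replicate 2 at chromosome 2: 9206986-9208304 with a fold of 2.63 and a −log10 q of 129.9. Counting this peak, 39 of the 3423 in the list reached such a q. The peak was 1319 bp wide against a list median of 373 bp, and its summit lay 202 bp outside AT2G21490 and 105 bp from AT2G21500. In replicate 1 the nearest summit was 7241 bp from the gene, so the peak rests on 1 replicate.

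The remaining dehydrin genes RAB18, ERD10 and ERD14 had no peak in their windows. RAB18, a dehydrin gene strongly induced by abscisic acid, had its nearest summit in replicate 1 at 2764 bp, inside the folate transporter gene FOLT1, with a fold of 2.89. ERD10 and ERD14 had theirs at 3676 and 7131 bp.

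**Figure D4:**
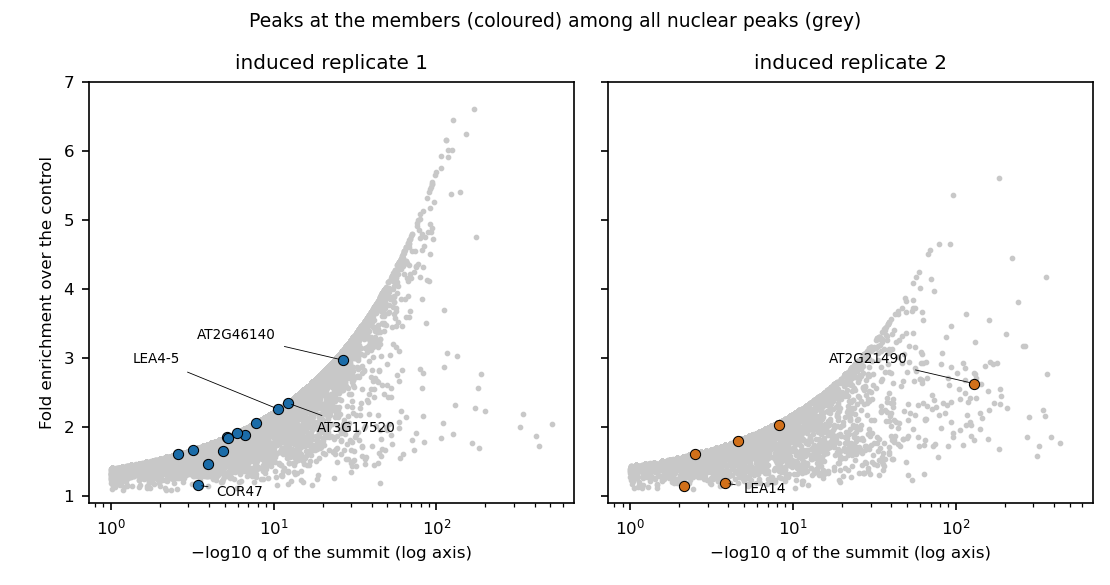
Fold enrichment of each nuclear peak (grey) against the −log10 q of its summit on a log axis, for replicate 1 (left) and replicate 2 (right), with the peaks at the 41 genes coloured. Member peaks run from a fold of 1.16 to 2.97 in replicate 1 and from 1.15 to 2.63 in replicate 2, below the highest folds of 6.60 and 5.60 in the lists.

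Across the families the median folds at members were close to those of the lists, 1.80 in replicate 1 and 1.70 in replicate 2. The 13 distinct peaks of replicate 1 had folds of 1.16 to 2.97 and a median of 1.86, and 8 of them were above the median of their list. The 6 of replicate 2 had folds of 1.15 to 2.63 and a median of 1.71, with 3 above the list median. A peak of the other replicate overlapped 1 of the 13 (7.69%) in replicate 1, where 17.1% of all 8493 peaks next to coding genes were overlapped. In replicate 2 it overlapped 1 of the 6 (16.7%), where 48.6% of 3030 were. Both counts come from the same pair of peaks at AT2G46140. Their difference from the shares over all peaks was not tested. Of the 14 pairs of gene and peak in replicate 1, 3 had the summit inside the member, and in 7 the member was the nearest coding gene. In replicate 2 the summit was inside the member in 4 of 6 pairs, and in 4 the member was the nearest coding gene. Pairs are not independent, since LTI30 and XERO1 enter with the same peak and some genes enter with more than 1 peak. The same shares over all pairs of coding gene and peak were not computed.

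Distances to the nearest summit were longer at these genes than over the genome in each list, given here as a description. The median was 6296 bp in replicate 1, against 2827 bp over all coding genes, and 14647 bp against 11424 bp in replicate 2. More than 5 kb separated 53.7% of the members from the nearest summit of replicate 1, against 36.7% of all coding genes. To the nearest matched region the median was 36947 bp against 21686 bp. To the nearest summit of either list it was 2764 bp against 2132 bp. Distances run from the gene span, which is shorter at the members, and were not compared with genes of like span. Members that stand side by side share these distances, as SESA1 to SESA4 do.

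Related genes outside the 41 were counted in the same way. Of 28 other LEA family genes, 9 had a peak in replicate 1 (32.1%, against 36.0% of all coding genes) and 0 in replicate 2 (against 13.6%). The highest folds were 2.24 at AT2G33690, 1.95 at AT2G03740 and 1.67 at RAB28. Among 13 other lipid droplet genes, 3 had a peak in replicate 1 (23.1%), led by the oleosin gene AT3G18570 with 1.71, and 1 in replicate 2 (7.69%), AT3G05500 with 1.19. The 4 vicilin-like storage protein genes had 0 in both lists.

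Of 16 genes for activators of the maturation programme, 5 had a peak in replicate 1 (31.2%, against 36.0% of all coding genes) and 2 in replicate 2 (12.5%, against 13.6%). BZIP25, a bZIP factor that acts on storage protein genes, had 2.14 in replicate 1 and 1.86 in replicate 2, and its region had an IDR of 0.161 by the authors' deposited table. BZO2H1 and ABI5, which encode further bZIP factors of seed gene activation, had peaks in replicate 1 only, with highest folds of 1.98 and 1.95. MYB118 also had one in replicate 1 only, with a fold of 1.95. BZIP53, another bZIP factor gene, had peaks in replicate 1 only, with a highest fold of 1.83. ABI3, FUS3, LEC2 and LEC1 had no peak in either list, nor did the bZIP factor genes EEL, DPBF2 and AREB3. WRI1, which directs seed oil synthesis, had one in replicate 2 only with 1.87.

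Genes of the vegetative cold and drought response stood higher by count in replicate 1, with 6 of 7 carrying a peak (85.7%, against 36.0% of all coding genes) and 1 of 7 in replicate 2 (14.3%, against 13.6%). The cold-induced genes KIN1 and KIN2 shared 1 of the 7 distinct peaks of replicate 1, with a fold of 1.43. GolS2, a galactinol synthase gene of drought tolerance, had 2.94 in replicate 1 and 1.99 in replicate 2, and its region had an IDR of 0.135 by the authors' deposited table. LTI78 (RD29A) and LTI65 (RD29B), classic reporters of dehydration stress, had highest folds of 2.72 and 2.04 in replicate 1 and no peak in replicate 2. They stand side by side. RD22 had no peak in either list. The count depends on which genes were placed in this list, since cold or drought genes also stand in the others. Of these, COR47 and LTI30 had a peak of replicate 1, while COR15A, COR15B, RD20, ERD10 and ERD14 had none in either list. The difference between this list of 7 and the 41 seed genes was not tested.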

How the data were processed

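ChIP-seq peaks from 2 induced samples and an IDR table were analysed. The control entered through the authors' peak calls. Per the series' design text, peaks were called per replicate with MACS2 2.2.7.1 against the uninduced control. bcl2fastq 2.20, Bowtie2 2.3.5.1, SAMtools 1.7 and TAIR10 are named in the submitters' processing notes. The sources used here do not state duplicate and mapping filters, which bear on tandem copies such as SESA1 to SESA4, or the IDR settings. The deposited lists give a score, a fold ratio over the control, and −log10 p and q (p-value and q-value) per summit. The authors' deposited IDR table gives −log10 IDR and a scaled score.

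Rows with one interval were merged, keeping the summit of the highest q. Coordinates are 1-based on TAIR10. Gene spans and names came from a RefSeq table of TAIR10.1 (no strand or exons), whose coordinates are not printed. All 109 listed loci matched. Shares have exact binomial 95% intervals that treat genes as independent, and no p-value was computed. The window assignment was tested on simulated data. Members and lists were chosen with earlier results of these data known. Every member with a peak is named, as are those with a summit within 3000 bp and up to 5 genes with a peak per other list. Among the activators BZIP53 is named beyond these 5. Some listed genes without a peak are also named. Intervals came from scipy 1.17.1, figures from matplotlib 3.10.9, and tables from pandas 2.3.3 with numpy 2.4.6 under Python 3.11.15.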

Additional observations from a re-analysis of the deposited data

How the results depend on the processing

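With 500 or 2000 bp outside the gene ends, any summit of a peak, or any base of its interval, each count stayed within 1.5 times its value. Other settings are given with the share of all coding genes after each count. With the gene span only, 3 members had a peak in replicate 1 (14.2%), 0 in both (2.54%), 6 in either (18.1%), and 0 had a matched region (2.52%). When a summit counted for its nearest gene alone these were 6 in replicate 1 (25.6%), 8 in either (29.3%) and 0 matched (5.12%). Peaks with −log10 q of at least 5 were found at 6 members in replicate 1 (21.3%), 2 in replicate 2 (7.87%) and 7 in either (25.4%). At 10 or more the counts were 3 (11.4%), 1 (4.39%) and 4 (14.3%), with 0 in both (1.56%). With 1 replicate left out, the members with a peak numbered 4 without replicate 1 (13.6%) and 11 without replicate 2 (36.0%). At an IDR of at most 0.01 (0.157%) or 0.1 (0.893%) the count stayed 0, which is not distinguishable from such low shares. No paired analysis was possible because the control is 1 sample and no test was made. Depth is unknown, and regions below the authors' limit are not listed.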

Other observations

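The authors' deposited table was checked for which summit's q it carries at peaks like those of AT2G46140, a check chosen after its values were seen. Of the 1776 nuclear regions, 1768 had a replicate 1 peak and 1739 a replicate 2 peak of the same interval, and only these were checked. Of the 1768, 514 came from a replicate 1 peak with several summits. All 514 carried the −log10 q of the weakest of these summits, within a tolerance of 0.001. The same held for all 235 regions from a replicate 2 peak with several summits. In replicate 1 the median −log10 q of those peaks was 2.85 at the weakest summit and 14.4 at the strongest. An IDR of at most 0.05 was reached by 7 of the 514, and by 175 of the 1254 regions whose replicate 1 peak had 1 summit. For comparison with AT2G46140, 105 regions with 1 summit in each list had −log10 q values within 1.5 times of 26.7 and 8.25, those of its main summits. Their IDR ran from 0.0495 to 0.204 with a median of 0.104, against 0.649 at AT2G46140. The IDR was not recomputed with the strongest summits.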
